A study of Mus musculus with 4 samples.

Results

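MB49 is a mouse bladder carcinoma line, and the variants described here are its single-base coding changes with a low share of reads carrying the new base. They were chosen by allele fraction, the share of a site's reads that show the alternative base rather than the reference base. Low variants had an allele fraction under 30% and near-heterozygous variants 40% to 60%. Both bands were taken from sites with at least 20 reads that were listed in neither YUMM 1.1 nor YUMM 1.3. There were 86 low variants in 73 genes and 340 near-heterozygous variants in 322 genes. They belong to 584 such sites, out of 707 in the MB49 list and 2013 in the lists of all 4 lines. A further 99 variants lay from 30% to under 40% and 59 above 60%, 51 had under 20 reads, and 72 were listed in a YUMM line as well. The allele fraction chose the bands, so its values are a description and carry no test.

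The series holds 1 exome library each of MB49, UV YUMM 1.1-9, YUMM 1.1 and YUMM 1.3. YUMM 1.1 and YUMM 1.3 are mouse melanoma lines, and the table of UV YUMM 1.1-9 is not used below except to count that it lists 0 of the MB49 sites. The sample taken here for MB49 is labelled 49XC-49, and it was matched by elimination because the other 3 table headings name the other 3 samples. For all samples alike the labels tell of male MB49 cells, isogenic to C57Bl/6J, that were placed under the skin of mice in which TAM had induced deletion of Atg7. They give mouse tumours as the source while the extraction text names cell lines, so whether host cells contributed DNA is not known here. With 1 library there is no replicate. All tests below compare sets of variants within that library and cover counting error only, and neighbouring variants are not independent of each other.

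In a clonal diploid tumour, a change on 1 of the 2 copies of a chromosome is read in about 50% of reads. A lower share is known to arise when only some cells carry the change, when the locus has extra copies, or when reads of near-identical genes are placed on 1 gene. MB49 is known as a line obtained from bladder epithelium exposed to the polycyclic hydrocarbon DMBA. DMBA binds adenine, and its known mutational mark is the A-to-T change, which is written T>A when named from the pyrimidine of the base pair.

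The codons below show the low T>A changes, followed by the 5 deepest protein-changing T>A changes of the near-heterozygous band. They are shown because T>A was the class that separated the bands. The capital marks the changed base on the coding strand, and where that letter is A the T lies on the other strand.
Olfr1250 C301S, low: Tgt to Agt
Flg R2830W, low: Agg to Tgg
Ces2h L388Q, low: cTg to cAg
Itgb5 H296L, low: cAc to cTc
Cyb561a3 S150C, low: Agc to Tgc
Cdh15 K309*, low: Aag to Tag
2310050C09Rik T131, silent, low: acA to acT
LOC105247253 V127, silent, low: gtA to gtT
Gm5431 I106, silent, low: atT to atA
Olfr1384 V115E, near-heterozygous: gTg to gAg
Vmn2r6 E153D, near-heterozygous: gaA to gaT
Vmn2r85 H839Q, near-heterozygous: caT to caA
Olfr1280 D52V, near-heterozygous: gAt to gTt
Ces2b K321*, near-heterozygous: Aaa to Taa

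The low variants had a median allele fraction of 21.2% (interquartile range 12.1 to 25.7, n = 86) and the near-heterozygous ones 50% (45.4 to 53.8, n = 340). Low sites were covered by more reads, with a median depth of 92 (54.5 to 202, range 21 to 678) against 60 (41.8 to 88, range 20 to 591). The number of alternative reads behind a low call had a median of 16.5 (range 5 to 140), against 29.5 (10 to 262) in the near-heterozygous band. The list holds no site under 5 alternative reads, under 10.1% or above 73.7%. At a depth of 20 it could therefore hold none under 25%, and the lowest fractions come only from deeper sites. For each of the 86 low variants the exact 95% interval of the allele fraction lay wholly under 50%, and this was so for 9 of the 340 near-heterozygous ones. Both counts follow largely from the limits that chose the bands, so they are a description and no test. The members nearest to the limits were Hpse2 D416N at 29.2% and the silent Prl2c3 S63 change at 29.1%, just inside the low band, and Sash1 A113V and the silent Zfp180 S206 change at 30%, just outside it. At the lower limit of the other band lay Cyp4f15 P459Q and Olfr1463 C144R at 40% inside, and Olfr1032 K48M at 39.8% and Lyst H3686P at 39.7% outside. At its upper limit lay Pira6 K422Q and the silent Sf3b3 S735 change at 60% inside, and Bbs2 R627S and Hpgd P266T at 60.4% outside.

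**Figure D1:**
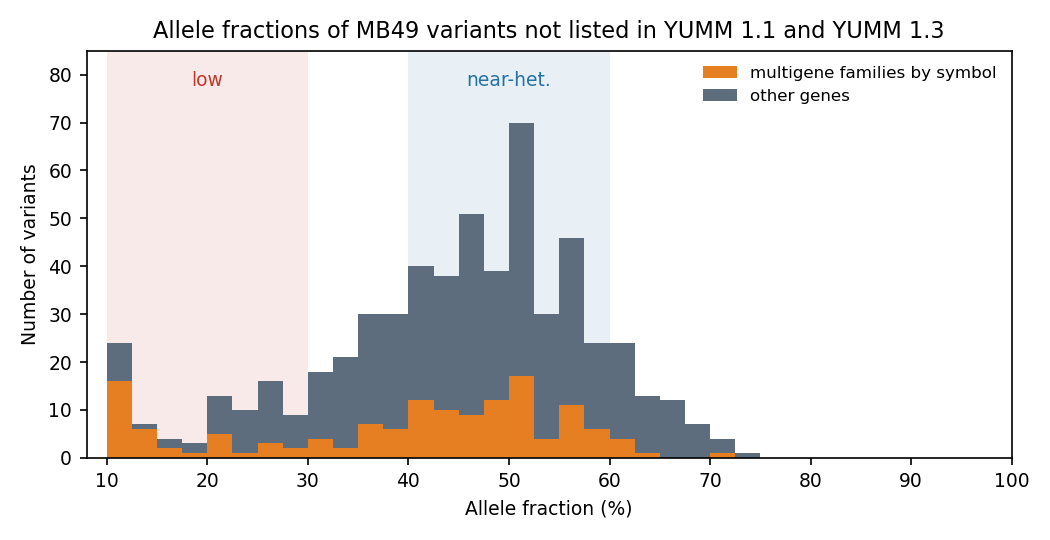
Histogram of the allele fraction (x axis, percent) of the 584 MB49 variants, as the number of variants per bin of 2.5 percentage points (y axis), stacked by whether the gene symbol marks a multigene family (orange) or not (grey). The shaded bands are low (red) and near-heterozygous (blue). The low band has a peak just above 10%, made up mostly of multigene families. The list holds no variant under 10.1%, so this peak stands at its cut edge.

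**Figure D2:**
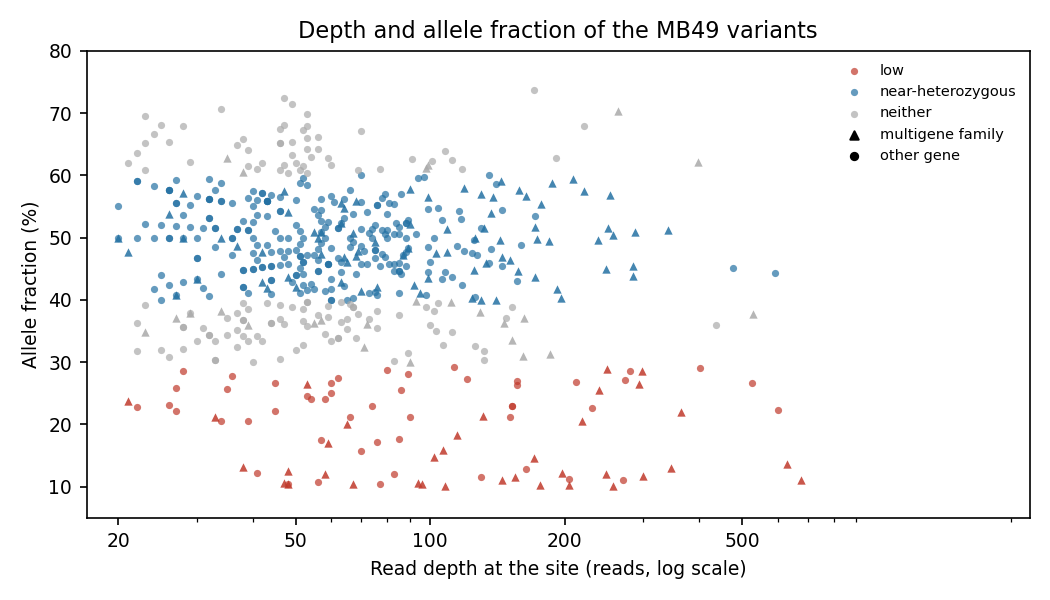
Read depth (x axis, log scale) against allele fraction (y axis, percent) of the same 584 variants, with low variants in red, near-heterozygous ones in blue and the others in grey. Triangles are genes of multigene families and circles other genes. Low variants reach up to 678 reads, and no variant lies under 10.1%.

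The first comparison asked whether the bands carry the same kinds of base change. T>A was rarer in the low band, with 9 of 86 variants or 10.5% (exact interval 4.90 to 18.9), against 93 of 340 or 27.4% (22.7 to 32.4) in the near-heterozygous band. Low minus near-heterozygous came to -16.9 percentage points (Newcombe interval -23.8 to -7.51; two-sided Fisher's exact test, adjusted over 6 classes, p = 0.00393). This was the only class called, or 16.7% of the 6 tested. In the 4 bands from low to high allele fraction, T>A made up 10.5%, 26.3%, 27.4% and 35.6% of variants. The low share was close in both kinds of gene, with 4 of 36 variants in multigene families (11.1%, 3.11 to 26.1) and 5 of 50 in other genes (10%, 3.33 to 21.8). Among near-heterozygous variants the counts were 20 of 81 (24.7%, 15.8 to 35.5) and 73 of 259 (28.2%, 22.8 to 34.1), in the same order. Families were told by gene symbol alone, so the other genes still hold related genes such as Tdpoz2 and Tdpoz3. Without multigene families the difference kept its direction and its call (-18.2 percentage points; p adjusted to 0.0418 by Fisher's exact test, and to between 0.000940 and 0.138 in all alternatives). The call was lost when only 1 variant per gene was counted and families were left out together, with 5 of 42 against 70 of 246 (exact test, adjusted p = 0.138).

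C>T was the leading class in both bands, with 31 of 86 low variants or 36.0% (26.0 to 47.1) and 106 of 340 near-heterozygous ones or 31.2% (26.3 to 36.4), which differ by 4.87 percentage points (interval -5.79 to 16.4; adjusted p = 0.526, exact test). T>C, the transition at T, made up 23.3% of the low band and 15% of the near-heterozygous band, 8.26 percentage points apart (interval -0.479 to 18.8; adjusted p = 0.226, exact test). C>A made up 12.8% and 9.71% of the low and near-heterozygous bands, and the interval of the difference was -3.49 to 12.2 percentage points. For C>G the shares were 6.98% and 3.53% (interval of the difference -1.07 to 11.0), and for T>G 10.5% and 13.2% (-9.08 to 6.07), in the same order of bands. These 5 classes did not pass the threshold, and their intervals include differences of several percentage points.

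**Figure D3:**
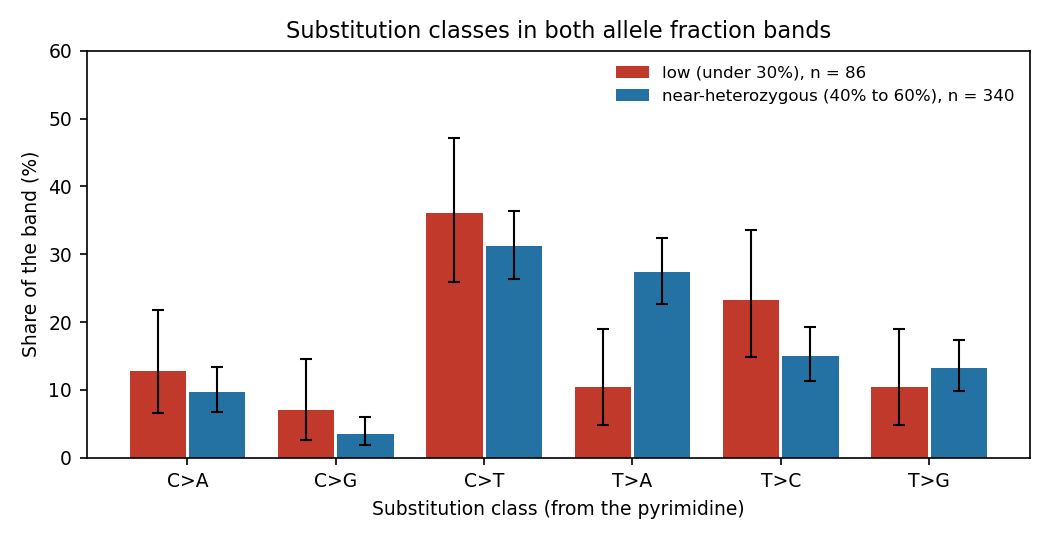
Share of each substitution class (x axis) in the low band (red, n = 86) and the near-heterozygous band (blue, n = 340), in percent of the band (y axis), with exact 95% intervals as bars. T>A makes up 10.5% of low and 27.4% of near-heterozygous variants.

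Among the low T>A changes, the new base was read in 21 of 115 reads in Olfr1250, an odorant receptor gene, 11 of 70 in Flg, the gene of the skin protein filaggrin, and 8 of 28 in Ces2h, a carboxylesterase. It was read in 12 of 45 reads in Itgb5, the integrin beta 5 subunit, in 14 of 66 in Cyb561a3, a cytochrome b561 family member, and in 5 of 41 in Cdh15, the muscle cadherin. The silent changes had 5 of 38 reads in 2310050C09Rik, 5 of 48 in LOC105247253 and 61 of 239 in Gm5431. Of the 9 changes 3 rested on only 5 alternative reads, the fewest that the list holds. Over the class the median depth was 48 (range 28 to 239) at the 9 low T>A changes and 58 (22 to 285) at the 93 near-heterozygous ones. The 5 near-heterozygous changes shown above are the deepest that change the protein, with 129 of 250 in Olfr1384, 118 of 238 in Vmn2r6, 79 of 196 in Vmn2r85, 89 of 172 in Olfr1280 and 78 of 160 in Ces2b. The Vmn2r genes encode vomeronasal receptors and Ces2b a carboxylesterase.

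The bases beside the change were known only where they lay in the same codon. A G came next after the T in 4 of 5 T>A changes of the low band, which are few, and in 30 of 56, or 53.6%, of the near-heterozygous band (26.4 percentage points apart, interval -17.8 to 47.3; adjusted p = 0.371, Fisher's exact test). At the middle codon position, where both neighbours are known, the low band held 2 T>A changes, 1 with C before and G after the T and 1 with G on both sides. Of the 31 such changes in the near-heterozygous band 8 were of the first kind and 6 of the other. T preceded the changed C in 9 of 24 low C>T changes, or 37.5% (exact interval 18.8 to 59.4), and in 40 of 72 near-heterozygous ones, or 55.6% (43.4 to 67.3), -18.1 percentage points apart (interval -37.7 to 4.82; adjusted p = 0.239, exact test). A pyrimidine preceded it in 12 of 24 and 49 of 72, or 50% and 68.1% (interval of the difference -39.0 to 3.76; adjusted p = 0.239, exact test). A G after the C, the CpG step at which methylated cytosine is known to mutate, was seen in 4 of 15 low and 6 of 68 near-heterozygous C>T changes, or 26.7% and 8.82%; this was not tested. Of the 3 Fisher's exact tests on neighbouring bases 0 passed (0%), and 0 had an unadjusted p under 0.05, the lowest being 0.143. These 3 tests did not cover T>C. A G preceded the T in 0 of 15 low and 18 of 39 near-heterozygous T>C changes, or 0% and 46.2%. An A preceded it in 7 of 15 and 3 of 39, or 46.7% and 7.69%. This T>C contrast was picked from the neighbour counts with their values already known, and it was not tested.

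The coding strand was compared because repair coupled to transcription is known to leave bulky adducts unequal between the strands. The coding strand held the T in 13 of 38 T changes of the low band, or 34.2% (19.6 to 51.4), and in 79 of 189 of the near-heterozygous band, or 41.8% (34.7 to 49.2). These shares lie -7.59 percentage points apart (interval -22.4 to 9.70; adjusted p = 0.705, Fisher's exact test). For T>A alone the counts were 3 of 9 and 34 of 93, or 33.3% and 36.6% (interval of the difference -26.8 to 29.3). For C>T the C lay on the coding strand in 19 of 31 low and 56 of 106 near-heterozygous changes, or 61.3% and 52.8% (-11.3 to 26.2). The 3 Fisher's exact tests gave 0 calls (0%) and 0 unadjusted p values under 0.05, the lowest being 0.422. With 9 low T>A changes the interval of that comparison spans more than 50 percentage points.

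The low band held 2 pairs of changes within 2 bases of each other, 1 of them within 1 codon, and the near-heterozygous band 8 pairs, 5 of them within 1 codon. Pairs split between bands were not counted. In Olfr1032, K48M (37 of 93 reads) adjoins a silent near-heterozygous change of the same codon (43 of 99). In Elk4, D278E (26 of 66) adjoins the near-heterozygous T279P (41 of 80). Pairs of C>T changes at adjacent bases numbered 0 in the low band and 4 in the near-heterozygous band; these counts were not tested. Whether the changes of a pair lie on the same reads was not examined, since the list gives counts per site only. The low pairs lie in Cd163, the scavenger receptor of macrophages for haemoglobin complexes, and in Sult2a6, a sulfotransferase. In Cd163, G284V and a silent change of the same glycine at 6:124311462 and 6:124311463 each had 35 of 152 reads. The joint codon would still encode valine. In Sult2a6, I239V and Q238R had 42 and 41 of 156 reads, and another low change of this gene, A191T, had 13 of 76.

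The near-heterozygous pairs of C>T changes lie in 4 genes. In Rbck1, a subunit of the linear ubiquitin ligase, P502S and P502L had 17 and 14 of 30 reads each. In Bckdha, a subunit of branched-chain ketoacid dehydrogenase, P361S and P361L had 24 of 48 and 25 of 51. In both genes the reference codon is cca, and the changes would give tta, leucine, if carried together. The other 2 such pairs lie in the odorant receptor genes Olfr697, with 18 of 37 and 20 of 42 reads, and Olfr887, with 39 of 95 and 39 of 92. The remaining near-heterozygous pairs lie in Tnfsf18, the ligand of the receptor GITR, in Sptbn1, a spectrin, in Pcdha11, a protocadherin, and in Tbx18, a T-box factor. In Tnfsf18, G79R had 42 of 83 reads and G79V 40 of 78, and the joint codon would give methionine. In Sptbn1, E41K and a silent change of the same codon had 11 of 26 and 11 of 25 reads.

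Consequences differed in how many changes were silent. Protein-changing variants made up 53 of 86 low variants, or 61.6% (50.5 to 71.9), and 259 of 340 near-heterozygous ones, or 76.2% (71.3 to 80.6). Low minus near-heterozygous came to -14.5 percentage points (interval -25.9 to -3.84; adjusted p = 0.0185 over 4 tests, Fisher's exact test). All other variants of both bands are synonymous, so the synonymous shares of 38.4% and 23.8% are the same comparison seen from its other side. These 2 calls, 50% of the 4 tests, are therefore 1 result. Counting it 2 times lowered its adjusted p, here and in the alternatives. Its unadjusted p was 0.00926 (Fisher's exact test). The call was lost without multigene families (32 of 50 against 196 of 259, p adjusted to 0.226 by the exact test, and to between 0.00501 and 0.372 in all alternatives) and without chromosome 1 (50 of 75 against 239 of 313, adjusted p = 0.208). C>T made up 16 of the 33 low silent changes, or 48.5% (30.8 to 66.5), and 34 of 81 near-heterozygous ones, or 42.0% (31.1 to 53.5).

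Truncating changes were too few in the low band for a comparison. A stop was gained by 1 of 86 low variants and by 14 of 340 near-heterozygous ones, or 1.16% and 4.12% (interval of the difference -5.80 to 2.44; adjusted p = 0.431, exact test). The low one is K309* of Cdh15 at 8:122862113, with 5 of 41 reads (12.2%, exact interval 4.08 to 26.2). The same gene carries the near-heterozygous change Q195L with 28 of 57 reads, and both are T>A. Of the 14 near-heterozygous stops 8 came from T>A, 5 from C>A and 1 from C>T, and 6 replaced lysine. The deepest were E57* in Gm13213 with 127 of 221 reads, K321* in Ces2b with 78 of 160 and K223* in Phf21a, a histone-binding protein, with 62 of 135. K1203* in Plekhh2 had 46 of 88 reads, K495* in Clca4a 38 of 74, E391* in Mars2, the mitochondrial methionyl-tRNA synthetase, 32 of 70 and K151* in Vimp, a selenoprotein of the endoplasmic reticulum, 34 of 70. C171* in Olfr670 had 27 of 63 and Q855* in the splicing gene U2surp 29 of 63. The start codon of the casein gene Csn1s2a was lost by M1V in 37 of 83 reads.

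SIFT predicts from related sequences whether an amino acid change is tolerated. It called 21 of 38 low missense changes deleterious, or 55.3% (38.3 to 71.4), and 126 of 216 near-heterozygous ones, or 58.3% (51.4 to 65.0). That is -3.07 percentage points apart, with an interval of -19.9 to 13.0 that leaves differences in both directions possible (adjusted p = 0.725, exact test). A class was missing for 14 of 52 low missense changes and for 27 of 243 near-heterozygous ones. Among the low changes called deleterious were W104L in Ran, the GTPase of nuclear transport, with 15 of 130 reads, G284V in Cd163, H296L in Itgb5 and A2V in Tdpoz3, with 74 of 273.

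**Figure D4:**
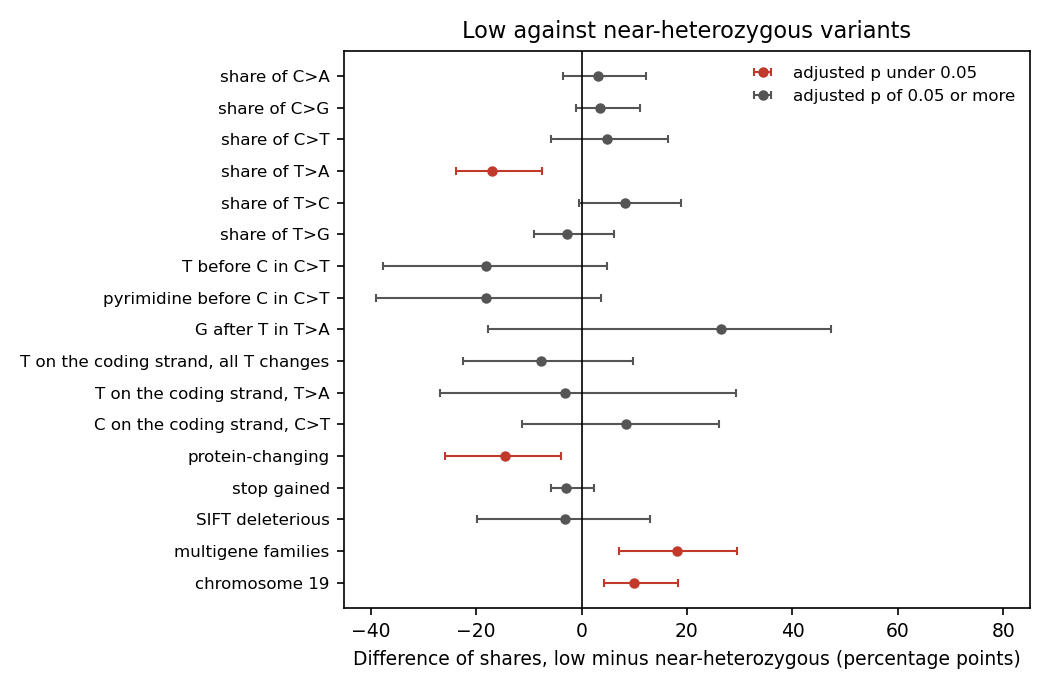
Difference of shares between low and near-heterozygous variants (x axis, percentage points, low minus near-heterozygous) for 17 of the tested properties (y axis), with Newcombe 95% intervals. Red points passed an adjusted p of 0.05. T>A and protein-changing variants were rarer in the low band. Chromosome 19 and multigene families told by symbol, mainly Gm and LOC symbols, were more frequent.

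Gene families were told by symbol alone (Olfr, Vmn, Zfp, Gm with a digit, Rik, LOC and 9 other prefixes). Related genes with other symbols, such as Tdpoz2 and Tdpoz3 or Flg and Flg2, were counted among the other genes. The families so told held 36 of 86 low variants, or 41.9% (31.3 to 53.0), and 81 of 340 near-heterozygous ones, or 23.8% (19.4 to 28.7). Low minus near-heterozygous came to 18.0 percentage points (interval 7.07 to 29.4; p = 0.00116, Fisher's exact test, 1 test). The odorant receptor genes, Olfr, held 9 low variants and 40 near-heterozygous ones, or 10.5% and 11.8%. The vomeronasal receptor genes, Vmn, held 3.49% and 2.65%. Predicted genes named Gm held 12.8% of the low and 2.65% of the near-heterozygous band, and LOC genes 6.98% and 0.588%. Rik genes held 5.81% and 3.53%. The higher low share thus lay mainly in Gm and LOC symbols, not in the receptor families. Gm, Rik and LOC symbols name no family, and whether each such gene has close relatives was not examined. Family members of the low band had the lowest fractions, with a median of 13.1% (interquartile range 10.9 to 20.7) against 23.0% (18.4 to 26.7) for its other genes. They were also the deepest sites, with a median depth of 138 against 76.5. In the near-heterozygous band the median depth was 99 in families and 55 in other genes. The part that reads of related genes play in these values was not tested. For comparison, of the 71 MB49 sites with at least 20 reads that a YUMM line lists too, 44 lay in the low band, 55 were in families and 12 were T>A, or 62.0%, 77.5% and 16.9%.

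Distances to neighbouring variants were counted in both bands. Another MB49 variant lay within 100 kb of 49 of 86 low variants, or 57.0% (45.8 to 67.6), and of 80 of 340 near-heterozygous ones, or 23.5% (19.1 to 28.4). A variant of the same band lay within that distance of 34 low variants, or 39.5% (29.2 to 50.7), and of 55 near-heterozygous ones, or 16.2% (12.4 to 20.5), so most low variants had no low neighbour. A site also listed in YUMM 1.1 or YUMM 1.3 lay within 100 kb of 14 low variants, or 16.3% (9.20 to 25.8), and of 2 near-heterozygous ones, or 0.588% (0.0713 to 2.11). These shares were set side by side after the values were seen and were not tested.

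All 11 low variants of chromosome 1 lay within 3.05 Mb, from 1:85212949 to 1:88266195, where the near-heterozygous band has 2. The first stretch holds C130026I21Rik K202E with 75 of 678 reads, LOC108167347 C59Y with 45 of 346, LOC101055758 V77L with 6 of 48, and silent changes of Gm7609 with 7 of 58 and 35 of 299, of Gm2666 with 15 of 102 and of Sp140, a nuclear body protein gene, with 10 of 83. These 7 fractions ranged from 11.1% to 14.7%. The second stretch holds silent changes of Mroh2a with 23 of 204 and 21 of 164 reads, and of Hjurp, the chaperone that loads the centromeric histone, with 52 of 230 and 80 of 280. Mroh2a also has a near-heterozygous silent change at residue 96, with 47 of 93 reads.

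On chromosome 3, 8 of 9 low variants lay within 0.957 Mb, from 3:92868982 to 3:93826024, a stretch where the near-heterozygous band has 2. It holds genes of the outer skin barrier. Flg carried R2830W with 11 of 70 reads and A2850P with 7 of 27, and a silent near-heterozygous change with 10 of 25. Flg2, the filaggrin-2 gene, carried S1102R with 30 of 270 and D1541E with 22 of 86. Next to them Tdpoz2, a gene of the TD and POZ domain family, carried I36V with 134 of 600 reads and silent changes with 140 of 526, low, and 215 of 476, near-heterozygous. The low and near-heterozygous changes of Tdpoz2 lie within 132 bases of each other, at 22.3%, 26.6% and 45.2%. Their exact intervals are 19.1 to 25.9, 22.9 to 30.6 and 40.6 to 49.8 in that order, a description, since the fraction chose the bands.

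On chromosome 2, 7 of 8 low variants lay in odorant receptor genes between 2:86047101 and 2:89656539, where the near-heterozygous band also has 7 variants. Olfr141 carried I253S with 13 of 65 reads and Y249C with 10 of 59 in the low band, and M299I with 21 of 50 in the near-heterozygous band. Olfr1250 carried C301S with 21 of 115 reads, against Q22P with 129 of 284 and a silent change with 80 of 192. Olfr1065 A300V had 18 of 155 reads, and silent changes of Olfr1034, Olfr1046 and Olfr1080 had 28 of 131, 14 of 53 and 21 of 204. Elsewhere LOC108167371 carried M21L with 30 of 248 reads and R61K with 56 of 125. In all, 7 genes had variants in both bands, and 12 genes had 2 or 3 low variants. In 1700029F12Rik, P127S and D126H had 10 of 94 and 10 of 96 reads, in Gm6747 A198V and Y200D had 11 of 108 and 17 of 107, and in Gm5431 L101F had 72 of 249 beside its silent change.

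Chromosomes were compared next, each against all others. Chromosome 19 held 10 of 86 low variants, or 11.6% (5.72 to 20.3), and 6 of 340 near-heterozygous ones, or 1.76% (0.650 to 3.80), 9.86 percentage points apart (interval 4.29 to 18.4; adjusted p = 0.00410 over 21 chromosomes, Fisher's exact test). It was the only chromosome called, or 4.76% of those tested. With low taken as under 25% the counts were 6 of 61 and 6 of 340, and the call was lost (p adjusted to 0.0905 by the exact test, and to between 0.000273 and 0.0905 in all alternatives). Its low variants lay from 19:6850467 to 19:43827961, 3 of them within the first 5.09 Mb and 6 within the last 6.87 Mb of that span, and 2 of the 10, both in Gm6747, lay in a multigene family. Without families the counts were 8 of 50 and 3 of 259 (exact test, adjusted p = 0.000664). Median depth was 107 at the 26 variants of chromosome 19 and 59 at all 584; the part of depth or copy number in the result was not tested.

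The 8 low variants of chromosome 19 outside families are given by gene. S1230F in Abcc2, the bile canalicular export pump MRP2, had 19 of 90 reads, S150C in Cyb561a3 14 of 66, and E913K in Ccdc88b 13 of 54. A silent change in Btaf1, a regulator of the TATA-binding protein, had 14 of 58. L545P in Pde6c, the cone phosphodiesterase, had 33 of 121, K388T in Kcnv2, a potassium channel subunit, 17 of 62, T709M in Patl1, an mRNA decay factor, 25 of 89 and D416N in Hpse2, the heparanase-2 gene, 33 of 113. These 8 fractions ran from 21.1% to 29.2%, within the limit that chose them. Chromosome 6 held 5 low and 4 near-heterozygous variants (5.81% and 1.18%, Fisher's exact test, adjusted p = 0.141), chromosome 3 held 9 and 14 and chromosome 5 also 9 and 14 (10.5% and 4.12% each, same adjusted p). In the other direction, chromosome 10 held 1 low and 24 near-heterozygous variants (1.16% and 7.06%, exact test, adjusted p = 0.141). Chromosome 18 held 0 low variants, which allows a share of up to 3.49% (3 counts of 86; the exact limit is 4.20%), and 15 near-heterozygous ones (adjusted p = 0.147, exact test). Chromosome X held 2 low variants, in Gm21608 and Kir3dl2, and 0 near-heterozygous ones, which allows up to 0.882% (3 counts of 340, with an exact limit of 1.08%). The labels give male cells, and the list holds no fraction above 73.7%. The 0 is therefore no measure of how many changes chromosome X carries.

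**Figure D5:**
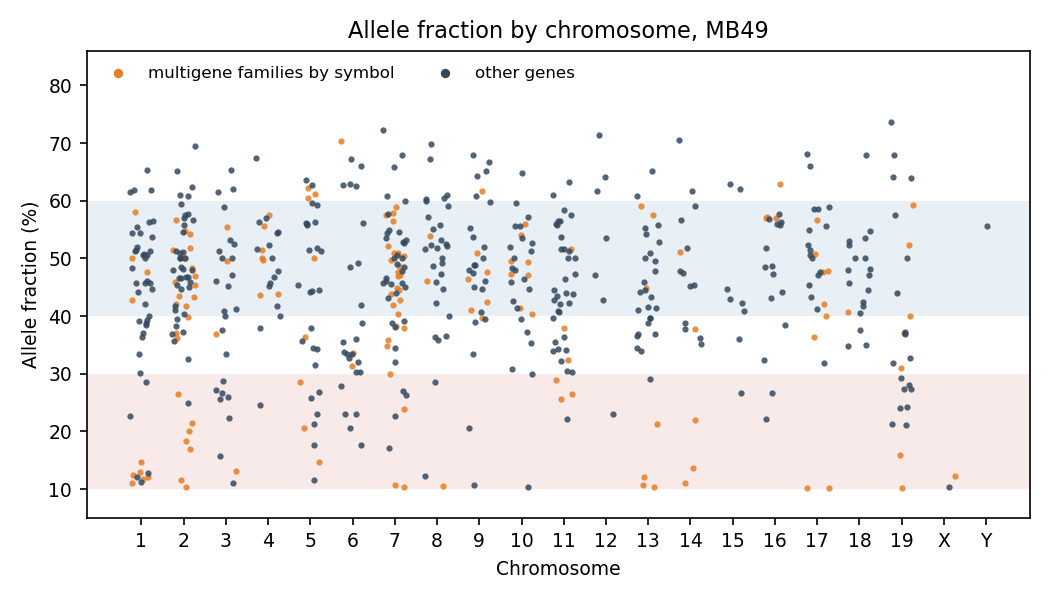
Allele fraction (y axis, percent) of the 584 MB49 variants by chromosome (x axis), with points spread sideways at random, multigene families in orange and other genes in dark grey. The shaded bands are low (red) and near-heterozygous (blue). Chromosome 19 has 10 of its 26 variants in the low band, and chromosome 6 has 4 of 27 in the near-heterozygous band.

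Of the low variants, 28 of 86 lay outside families and had no other MB49 variant within 100 kb, or 32.6% (22.8 to 43.5). Among near-heterozygous variants this was so for 204 of 340, or 60% (54.6 to 65.2). The 28 still include Tdpoz3 and Ces2h, whose relatives Tdpoz2 and Ces2b also carry MB49 variants. Whether others of the 28 have related genes or pseudogenes was not examined. Of these 28 low variants 3 were T>A, or 10.7% (2.27 to 28.2), against 59 of the 204, or 28.9% (22.8 to 35.7). C>T made up 14 of the 28, or 50% (30.6 to 69.4), and 63 of the 204, or 30.9% (24.6 to 37.7). On chromosome 19 lay 7 of the 28, or 25% (10.7 to 44.9), and 3 of the 204, or 1.47% (0.304 to 4.24). These counts were chosen after the values were seen and are given with no test. Besides those on chromosome 19 they include A1104D in Lepr, the leptin receptor, with 13 of 53 reads, and S76N in Nagk, a sugar kinase, with 10 of 57. Silent changes were found in Npm1, the nucleophosmin gene, with 6 of 27 reads, in Ptk2, the focal adhesion kinase gene, with 16 of 60, in Smurf1, a ubiquitin ligase gene, with 17 of 74, and in Cdca7 with 15 of 60. D815G in Acad10, an acyl-CoA dehydrogenase family member, had 57 of 212 reads and was among the 8 deepest protein-changing low variants outside families, though a silent low change of Acad12 lay within 100 kb of it.

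A chosen set of genes from cancer and related processes was looked up in both bands. Among 275 genes in 7 lists (bladder cancer, DNA repair, chromatin, receptor kinases with Ras and PI3K, cytidine deaminases, antigen presentation, cell cycle), 0 of 86 low variants lay in a listed gene, which allows a share of up to 3.49% (3 counts of 86; the exact limit is 4.20%). The near-heterozygous band had 5 of 340 in them, 2 of which changed the protein. That share lies under both limits given for the low band, so the 0 does not set the bands apart. The difference was not tested. The 0 holds for these lists only, and Npm1 and Ptk2, named above with silent low changes, are in none of them. N605Y in Pik3ca, the catalytic subunit of PI3 kinase, at 3:32449975, had 24 of 51 reads (47.1%, 32.9 to 61.5). E926G in Erbb3, a receptor of the EGF receptor family, at 10:128571701, had 24 of 42 (57.1%, 41.0 to 72.3). SIFT called both deleterious, and the first is a T>A change. The deepest protein-changing near-heterozygous variants outside families, besides Ces2b, Phf21a and Pira6, were K386T in the protocadherin gene Pcdhb12 with 92 of 172 reads, A256V in the ribosomal protein gene Rpl3 with 67 of 156, G278S in Tfpi, the tissue factor pathway inhibitor, with 79 of 145, V136L in Rab6a, a Golgi GTPase, with 66 of 145, and M336K in Neto2 with 67 of 130.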

How the data were processed

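Per the labels' protocols, exome libraries were made with an Agilent mouse exon kit. BWA 0.7.5a, SAMtools, Picard, GATK and FastQC stand in the submitters' processing notes beside the build mm10, without roles. Which program called and filtered the variants is not given in the sources used here. The authors' deposited values are, per the file headers, raw read counts for each of the 2 bases at a site, not normalized. From these, allele fractions, bands and substitution classes (from codon and alleles) were computed with Python 3.11.15 and SciPy 1.17.1. Shares have exact (Clopper-Pearson) 95% intervals, differences Newcombe intervals. Counts were compared by Fisher's exact test, two-sided, Benjamini-Hochberg adjusted within 6 classes, 3 neighbouring-base tests, 3 strand tests, 4 consequence tests or 21 chromosomes, threshold 0.05. Scripts were tested on simulated data. Intervals cover counting error only, because there is 1 library and no replicate. Those of allele fractions take each read as separate, though reads lacking molecular identifiers may repeat 1 molecule.

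The members, lists and tests were chosen with earlier results of these data known. Named are list genes, truncating changes, the deepest protein-changing members, genes with several low members or with members in both bands, members at the limits, neighbouring pairs and, of the class called, the 5 deepest; further low members were named after their values were seen. Of the gene symbols, 65 of 73 in the low band and 319 of 322 in the near-heterozygous band matched RefSeq (GRCm38, which is mm10). No genome sequence was used, so bases outside the codon were not read. A result that needs an item withheld for evaluation is not reported here.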

Additional observations from a re-analysis of the deposited data

How the results depend on the processing

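Differences are low minus near-heterozygous, in percentage points, and 14 alternatives were run, 4 of them chosen after seeing the data (leaving out chromosome 19, leaving out chromosomes 1 and 19, families told without LOC symbols left out, and 1 variant per gene with families left out). No paired analysis was possible because the line has 1 library. The lower T>A share kept its direction under all 14 and its call under 13; with 1 variant per gene and families left out it was -16.6. The higher share of families, told by symbol, kept its direction and call under all 11 alternatives that could be run (adjusted p from 2.32e-07 to 0.0274, exact test). The protein-changing difference lost its call under 7: -13.9 with low under 25%, -8.16 with shared sites kept, -11.7 without families, -9.69 without chromosome 1, -13.1 without chromosomes 1 and 19, -9.79 without families told without LOC symbols, and -10.5 with 1 variant per gene and families left out. The synonymous difference is its mirror image: 13.9, 8.16, 11.7, 9.69, 13.1, 9.79 and 10.5 under the same settings. Chromosome 19 lost its call with low under 25% (8.07). The number of chromosomes called was 1 as reported, 2 at a depth of at least 50 (5 and 19), 0 with low under 25% (Fisher's exact test; 3 of 21 had an unadjusted p under 0.05) and 3 with shared sites kept (5, 10 and 19). Differences that never passed the threshold changed sign as follows: C>T -1.80 without chromosomes 1 and 19; T>G 0.498 without chromosome 1; T on the coding strand over all T changes 2.91 with 1 variant per gene and families left out; the same for T>A 11.0 at a depth of at least 50, 3.54 with shared sites kept, 2.34 without chromosome 19 and 2.27 without chromosomes 1 and 19; and C on the coding strand for C>T -1.14 without families and -2.88 with families told without LOC symbols left out. Depth limits the low band from below: with at least 5 alternative reads per listed site, fractions under 25% need more than 20 reads. The 9 low T>A changes limit every test within that class.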

Other observations

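Among the autosomes, chromosomes 6 and 19 had the lowest shares of near-heterozygous variants. On chromosome 6, 4 of 27 MB49 variants were near-heterozygous, or 14.8%; 17 lay under 40%, with a median of 32%, and 6 above 60%, with a median of 64.4%. On chromosome 19 it was 6 of 26, or 23.1%, with 16 under 40% (median 27.8%) and 4 above 60% (median 66.0%). Of the other autosomes, chromosomes 4, 10, 16, 17 and 18 had the highest shares of near-heterozygous variants, 73.7% to 87.0%. The lowest shares of these other autosomes were 41.2% on chromosome 5, 42.9% on chromosome 12 and 44.4% on chromosome 14. Outside families, 15 of 24 variants of chromosome 6 lay under 40% and 5 above 60%. The variants above 60% on chromosome 6 include Q33L in Ing3, a chromatin reader, with 37 of 56 reads, and V444E in Bcat1, a branched-chain aminotransferase, with 35 of 52; those under 40% include A102T in Pot1a, a telomere-binding protein, with 10 of 33. Median depth was 57 on chromosome 6 and 107 on chromosome 19, against 59 on the other chromosomes. These values use the allele fraction that set the bands, and they were singled out after they were seen, so they carry no test.

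Listed genes with a protein change outside both bands, also singled out after the values were seen, were Kdm5a, a histone demethylase, with S708F in 11 of 33 reads, Kmt2a, a histone methyltransferase, with C1478F in 17 of 43, Rad50, a DNA double-strand break repair gene, with Y666F in 9 of 28, and Mlh3, a mismatch repair gene, with N291I in 35 of 49.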
